A study of Mus musculus with 2 samples.

Results

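Genes of TGF-beta and activin signaling were followed through the cell types of aged mouse hindlimb muscle. They were chosen by symbol from a list and make up 10 of the 32285 genes measured. The set holds the 3 TGF-beta ligands (Tgfb1, Tgfb2 and Tgfb3), their receptors (Tgfbr1, Tgfbr2 and the co-receptor Tgfbr3), the activin A subunit Inhba, myostatin (Mstn), and the secreted binding proteins follistatin (Fst) and follistatin-like 1 (Fstl1). TGF-beta ligands are secreted in a latent form, are released in the matrix, and bind TGFBR2, which then activates TGFBR1 and the Smad proteins SMAD2 and SMAD3. TGFBR3 (betaglycan) presents ligand, TGF-beta 2 above all, to that receptor pair. Activins and myostatin signal through related receptors, and follistatin binds and neutralizes both. In skeletal muscle this signaling is known for restraining muscle growth and for driving matrix production by fibroblasts.

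Droplet-based single-cell RNA-Seq had been run on 2 libraries of quadriceps and gastrocnemius muscle from female C57Bl/6J mice aged 24 months. The ATRA+agonist library came from muscle injected 3 times with ATRA (all-trans retinoic acid) together with CD3254, which activates RXR-alpha, and BMS961, which activates RAR-gamma. The DMSO vehicle library came from muscle injected as often with the solvent alone. Each library pooled the sorted cells of 2 mice, which cannot be told apart here, and no genotype other than the strain was given. Each group is thus 1 library without replicates: the differences given lie between 2 libraries, and no p-value is given.

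After filtering, 6907 cells of the ATRA+agonist and 6953 of the DMSO vehicle library remained, with a median of 4711 and 4886 UMIs (unique molecular identifiers, each marking 1 captured transcript). Cells were clustered without the members, and the clusters were named from marker genes into 13 cell classes that carry the ending "-like". Classes with at least 100 cells in each library were compared, which left 6. These were endothelial-like, FAP-like (fibro-adipogenic progenitors, the interstitial fibroblasts of muscle), MuSC-like (muscle stem cells) and macrophage or monocyte-like cells. The others were pericyte/smooth muscle-like (the pericytes and smooth muscle cells of vessel walls) and tenocyte-like (tendon fibroblasts) cells. In these 6 classes every marker of the class's own list was detected in both libraries. A label held less well in the perineurial-like cells of the ATRA+agonist library, where the 9 perineurial markers summed to 863 CPM against 7301 CPM in DMSO vehicle. In these cells FAP markers stood at 30163 and 22680 CPM, and adipocyte markers at 1302 and 14.1 CPM. Red blood cell genes were higher in DMSO vehicle in all 6 compared classes, with 831 to 1413 CPM against 247 to 532 CPM, and their part in the results was not tested. The libraries shared 9 cell barcodes among the kept cells.

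A level is the sum of a gene's UMIs over a class, per 1000000 UMIs of that class (CPM), with an exact Poisson 95% interval that covers counting error only. Because the reads come from transcript ends and genes differ in how they are captured, levels were compared between classes for 1 gene at a time and never between genes. As a reference for free RNA in the droplets, barcodes with at least 50% hemoglobin UMIs were used (2314 in ATRA+agonist and 8125 in DMSO vehicle), in which no member should be made. Its levels leave out hemoglobin UMIs and were taken as free RNA largely undiluted by RNA of the other cell classes. These barcodes were not filtered for doublets, and whether some droplets also held another cell was not tested. A class can lie far under this reference, as with Fst in endothelial-like cells (0.48 and 0.56 CPM against 14.5 and 20.2 CPM). A level near or under the reference is therefore no sign by itself of free RNA, whose share in a class was not measured.

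Tgfb1, the ligand of the family best known from immune cells and platelets, lies on chr7:25687002-25705077 (GRCm38, plus strand). Among classes with at least 50 cells its level in ATRA+agonist was highest in macrophage or monocyte-like cells at 365 CPM (95% interval 348 to 382), followed by B cell-like cells at 329 CPM and T or NK cell-like cells at 230.0 CPM. In DMSO vehicle the corresponding levels were 350.3, 319.6 and 209 CPM, and neutrophil-like cells stood at 354 CPM with an interval that met that of the macrophages. Macrophage or monocyte markers summed to 11984 CPM in these neutrophil-like cells, beside 14296 CPM for neutrophil markers. Endothelial-like cells followed with 210.5 and 200.3 CPM, so that immune and endothelial classes were the high group. The resident mesenchymal and stem cells were low: FAP-like cells had 41.5 and 40.5 CPM and MuSC-like cells 27.5 and 23.6 CPM. Both were under the 79.6 and 45.4 CPM of the free-RNA reference, and the part of free RNA in them was not tested. Mast cell-like cells reached 496 and 552 CPM, but from only 33 and 31 cells.

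Tgfb2, on chr1:186622792-186705989 (minus strand), had nearly the opposite distribution. FAP-like cells were highest with 214 CPM (206 to 222) in ATRA+agonist and 185 CPM (178 to 193) in DMSO vehicle. Tenocyte-like cells followed with 131 and 114 CPM and MuSC-like cells with 118 and 115 CPM, and the intervals of these 2 classes overlapped in both libraries. Macrophage or monocyte-like cells held 6 and 2 UMIs in all, and none was found in the 266 and 66 T or NK cell-like cells. Across the 22 points formed by class and library with at least 50 cells, Tgfb1 and Tgfb2 had a Pearson r of -0.73 on the log2(CPM + 10) scale, a description only, since points of 1 library share its free RNA and classes differ in depth.

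The promoters of these 2 ligands are shown because their genes had the most unlike patterns of the family. Both runs are the 250 bases before the RefSeq start on GRCm38.p6, 5′ to 3′ on the gene's strand, at chr7:25686752-25687001 for Tgfb1 and chr1:186705990-186706239 for Tgfb2. Capitals mark GGGCGG (the GC box) or TATAAA (the TATA box) on either strand, and the searched motifs do not overlap each other.
Tgfb1: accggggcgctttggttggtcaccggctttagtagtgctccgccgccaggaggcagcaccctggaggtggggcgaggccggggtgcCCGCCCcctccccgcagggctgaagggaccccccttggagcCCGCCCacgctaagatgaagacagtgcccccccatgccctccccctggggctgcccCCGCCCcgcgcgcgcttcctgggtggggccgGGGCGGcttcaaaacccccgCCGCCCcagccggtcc
Tgfb2: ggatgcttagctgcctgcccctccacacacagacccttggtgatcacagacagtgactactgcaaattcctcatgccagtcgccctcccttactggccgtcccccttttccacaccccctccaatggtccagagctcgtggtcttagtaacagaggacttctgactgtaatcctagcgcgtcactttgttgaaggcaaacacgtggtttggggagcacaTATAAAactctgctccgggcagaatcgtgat
The Tgfb1 promoter had 5 GC boxes, no TATA box and a G+C content of 75.2%, against no GC box, 1 TATA box and 53.6% for Tgfb2. A promoter was found in the RefSeq set for 7 of the 10 members. Of the other 5, Tgfbr1 and Fstl1 each had 2 GC boxes and no TATA box, Mstn and Inhba each had 1 TATA box and no GC box, and Tgfbr2 had neither. Of all 32851 promoters given there, 32.7% held a GC box and 12.4% a TATA box. The half-site AGGTCA of retinoic acid receptors (both strands) was in none of the 7 windows and in 14% of all promoters, which says no more than that these letters are not in these windows.

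Tgfb3, on chr12:86056745-86079041 (minus strand), was highest in tenocyte-like cells and pericyte/smooth muscle-like cells. The former held 108 CPM (88.2 to 130.5) in ATRA+agonist and 111 CPM (99.6 to 123.4) in DMSO vehicle. The latter held 75.3 CPM (58.7 to 95.2) and 116 CPM (98.3 to 136). In each library the intervals of these 2 classes overlapped. FAP-like cells held 48.1 and 47.7 CPM, perineurial-like cells 66.4 CPM from 64 cells and 44.1 CPM from 137 cells, and macrophage or monocyte-like cells had 5 and 4 UMIs.

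Inhba, on chr13:16011851-16031621 (plus strand), encodes the subunit whose dimer is activin A. Its highest class was tenocyte-like, with 121 CPM (100.3 to 145) in ATRA+agonist and 134 CPM (122 to 148) in DMSO vehicle. Perineurial-like cells followed with 93.0 CPM (14 UMIs) and 75.8 CPM (43 UMIs), and their interval in ATRA+agonist met that of tenocyte-like cells. FAP-like cells held 57.1 and 56.8 CPM. In endothelial-like, B cell-like and T or NK cell-like cells Inhba was at or near 0, with 1 UMI over these 3 classes. An unnamed cluster led by Apod, Dlk1 and Tenm2 had 159 CPM from 78 cells and 144 CPM from 123 cells, so that Inhba was not restricted to the named fibroblast classes. Glial-like cells held 3 UMIs in ATRA+agonist and 95 in DMSO vehicle, of which 61 came from a cluster led by Gm20754 and Csmd3 that had 7 cells in ATRA+agonist and 152 in DMSO vehicle. Macrophage markers in glial-like cells stood at 58.1 and 1892 CPM, and no comparison is drawn from this class.

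Mstn, on chr1:53061640-53068079 (plus strand), the ligand that muscle fibers make, was all but absent. In all barcodes of both libraries 33 UMIs were counted, 13 and 15 of them in kept cells. Of those 15 in DMSO vehicle, 14 were in 8 tenocyte-like cells, and tenocyte-like cells of ATRA+agonist held 3. The 214 myonuclei-like barcodes of ATRA+agonist gave 3 UMIs (8.15 CPM, 1.68 to 23.8), and the 6 of DMSO vehicle gave none. No comparison of Mstn between libraries could be made at this depth.

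Tgfbr1, the type I receptor (chr4:47353222-47414931, plus strand), was highest in tenocyte-like cells at 200.2 CPM (173 to 230.4) and 223 CPM (207 to 240). MuSC-like cells held 156 and 201 CPM and macrophage or monocyte-like cells 138 and 189 CPM. Endothelial-like cells were the lowest of the 6 compared classes, with 65.7 and 76.2 CPM against 33.3 and 40.0 CPM in the free-RNA reference. Tgfbr2, the ligand-binding type II receptor (chr9:116084293-116175360, minus strand), was highest in B cell-like cells at 289 CPM (272 to 307) and 391 CPM (326 to 466). T or NK cell-like cells had 262 and 218 CPM and FAP-like cells 254 and 270 CPM, and the intervals of these 3 classes overlapped from neighbour to neighbour except for the B cell-like cells of DMSO vehicle. In MuSC-like cells, with 55.9 and 57.5 CPM, endothelial-like cells, with 62.4 and 64.0 CPM, and pericyte/smooth muscle-like cells, with 62.4 and 67.9 CPM, it was near the reference of 47.7 CPM (32.9 to 67.0) and 44.4 CPM (37.1 to 52.7). The intervals of all 3 classes met that of the reference in ATRA+agonist, and the same held for MuSC-like cells in DMSO vehicle. The part of free RNA in these Tgfbr2 levels was not tested.

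Tgfbr3 (chr5:107106570-107289629, minus strand) was highest in tenocyte-like cells at 903 CPM (845 to 965) and 1072 CPM (1036 to 1109). MuSC-like cells held 620 and 618 CPM, FAP-like cells 437 and 549 CPM, and glial-like cells 446 and 394 CPM. Macrophage or monocyte-like cells had 7 and 8 UMIs, or 1.45 and 2.38 CPM, although with medians of 9809 and 8856 UMIs per cell they were about as deep as FAP-like cells. Over the 22 points the levels of Tgfbr3 and Tgfb2 had an r of 0.87, the highest among pairs of members.

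Fst (chr13:114452290-114458951, minus strand) was the member most confined to 1 class. FAP-like cells carried 98.4% of its UMIs in ATRA+agonist and 94.8% in DMSO vehicle. Their level was 303 CPM (293 to 312) in ATRA+agonist and 217 CPM (209 to 225) in DMSO vehicle. No Fst UMI was found in the 626 and 68 B cell-like cells, which allows up to 0.771 and 9.31 CPM from 3 counts. MuSC-like cells had 6 and 8 UMIs. Fst in the free-RNA reference was 14.5 and 20.2 CPM, above the level in most other classes.

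Fstl1 (chr16:37776873-37836514, plus strand), a secreted glycoprotein of connective tissue, was highest in FAP-like cells, at 1169.6 CPM (1151 to 1188) and 1124.6 CPM (1106 to 1143). They held 87.3% and 79.5% of its UMIs. Tenocyte-like cells had 283 and 282 CPM, and macrophage or monocyte-like cells 4 and 1 UMIs. The perineurial-like cells read 1043 and 455 CPM. Perineurial markers were weaker in this class in ATRA+agonist, and its median depth was 1311 against 3335 UMIs per cell. The part of these differences in the Fstl1 gap was not tested.

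**Figure D1:**
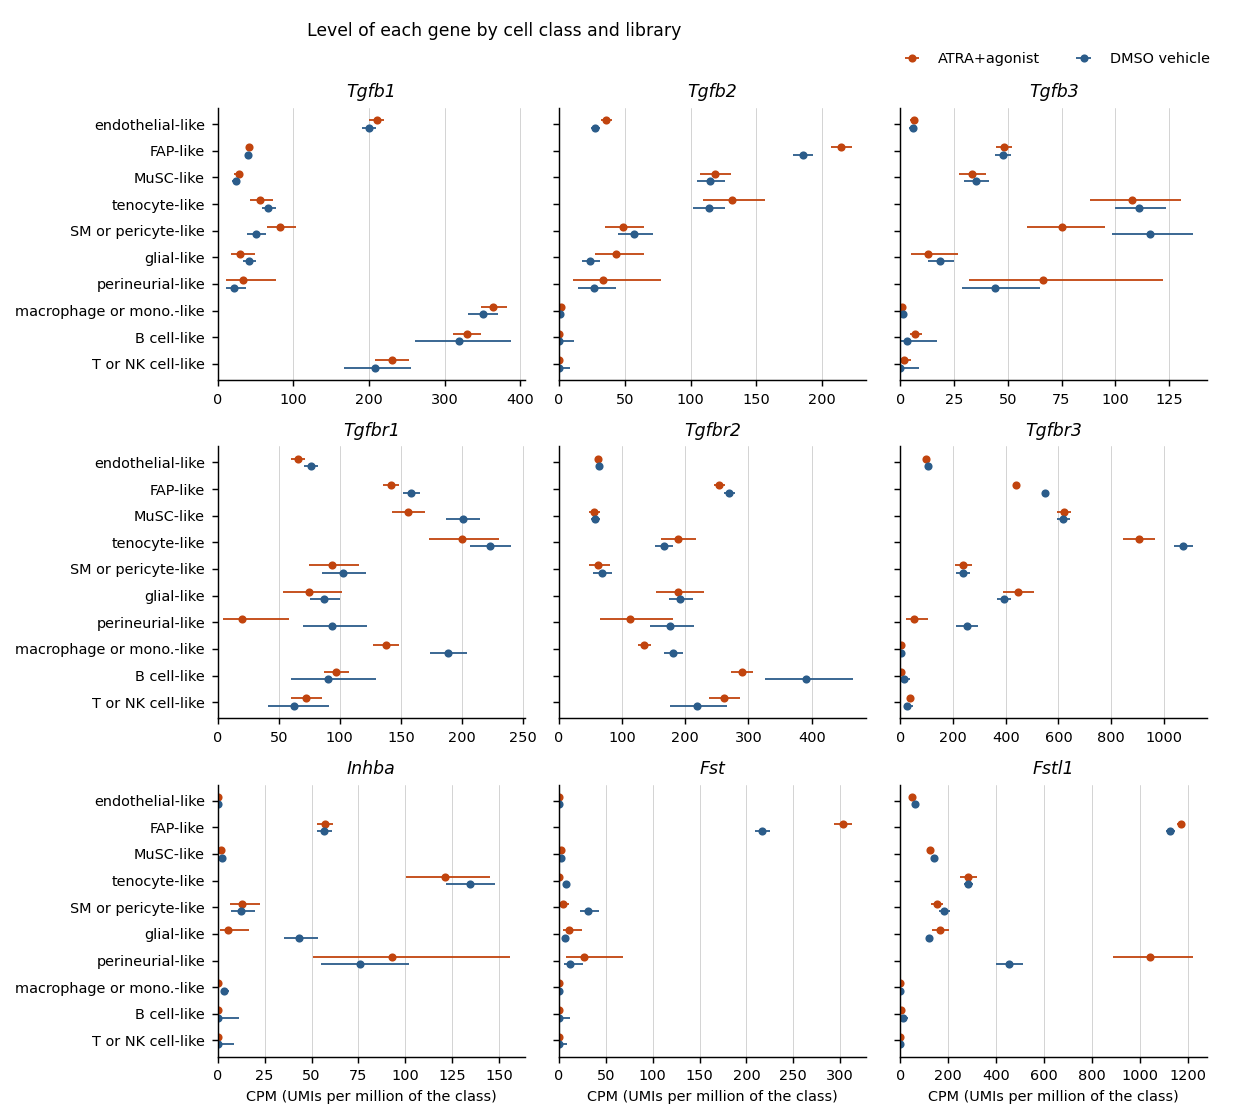
Level (CPM, x axis) of 9 members in 10 cell classes (y axis), with points for the ATRA+agonist library (orange) and the DMSO vehicle library (blue) and bars for exact Poisson 95% intervals; each panel has its own scale. Tgfb1 was highest in macrophage, B cell, T cell and endothelial classes, Tgfb2, Tgfbr3, Inhba and Fstl1 in fibroblast classes, Tgfb3 in tenocyte-like and pericyte/smooth muscle-like cells, and Fst in FAP-like cells.

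By likeness of pattern over the 22 points, the genes closest to Fst were Lgi2 (r of 0.95), Nova1 (0.92) and D630033O11Rik (0.91). Fstl1 was closest to Calu, Bmp1 and Fbn1, and Inhba to Dcn, Ccdc74a and Aebp1, each with an r of 0.94 to 0.97. For Tgfb1 these were Arrdc1, Irak2 and Casp8 (0.94 each), and Mxra7 and Cacna2d1 were among those of Tgfb2 (0.93 each). Tgfb3 was closest to Ccdc80, Pcdh18 and Igfbp5 (0.93 to 0.94), and Cachd1 (0.95) was among the genes closest to Tgfbr3. The wider receptors had looser likeness, with Med13l, Nufip2 and Wsb1 (0.89 to 0.91) for Tgfbr1 and Hyou1, Tram1 and Hnrnpul1 (0.83 to 0.87) for Tgfbr2.

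The comparison between the libraries asked whether the members differed with stimulation of the retinoic acid pathway. A member was called in a class when its CPM differed by at least 1.5-fold and it had at least 50 UMIs over both libraries. Of 60 pairs of member and class, 41 had enough UMIs, 1 was higher in ATRA+agonist, 1 was lower and 39 were within the fold. In FAP-like cells 0 of 9 members passed, against 9.55% of all genes by the same rule. The count was 0 of 7 in MuSC-like cells (11% of all genes), 0 of 7 in endothelial-like cells (10.5%), 0 of 3 in macrophage or monocyte-like cells (8.39%) and 0 of 8 in tenocyte-like cells (17.1%). In pericyte/smooth muscle-like cells 2 of 7 passed, against 15.1% of all genes, and a count of 2 among 7 genes is too small to be read against that share. The median log2 ratio of the members was 0.01 in FAP-like, -0.04 in MuSC-like, -0.04 in endothelial-like, -0.13 in pericyte/smooth muscle-like and -0.10 in tenocyte-like cells, and -0.42 over the 3 members of the macrophages. Over all genes tested it lay between -0.04 and 0.08.

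**Figure D2:**
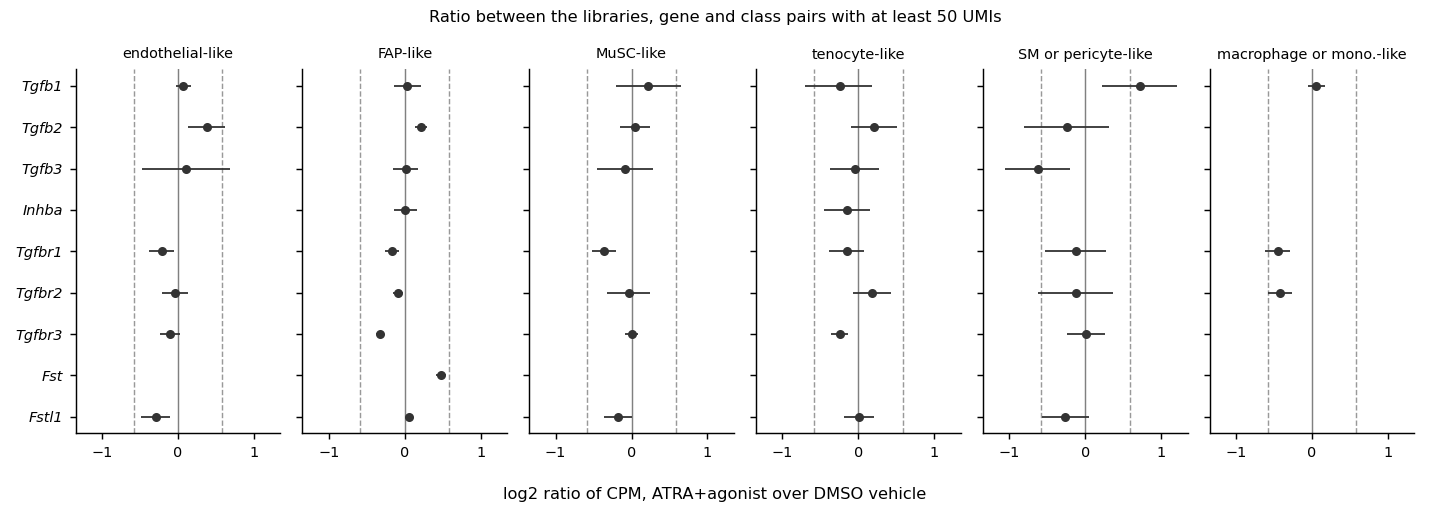
Log2 ratio of CPM, ATRA+agonist over DMSO vehicle (x axis), for each member (y axis) in the 6 compared classes, with bars for the exact 95% interval of counting error, a solid line at 0 and dashed lines at 1.5-fold. Tgfb1 and Tgfb3 in pericyte/smooth muscle-like cells lie past the dashed lines on opposite sides, and Tgfbr1 lies left of 0 in all 6 panels.

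Tgfb1 and Tgfb3 differed in opposite directions in pericyte/smooth muscle-like cells. Tgfb1 read 82.9 CPM (77 UMIs, 65.4 to 103.6) in ATRA+agonist and 50.4 CPM (66 UMIs, 39.0 to 64.1) in DMSO vehicle, intervals that did not overlap but came close. This was a log2 ratio of 0.72 (95% interval 0.23 to 1.22). Tgfb3 read 75.3 CPM (70 UMIs) and 116 CPM (152 UMIs), a log2 ratio of -0.62 (-1.05 to -0.20), and its intervals did not overlap either. The class came from 223 and 319 cells in a cluster led by Abcc9 and Kcnj8 (176 and 262 cells) and a smaller one led by Acta2 and Tagln (47 and 57 cells). Both calls ended when cells with few genes were left out (0.44 for Tgfb1 and -0.34 for Tgfb3), when cells were named one by one (0.34 and -0.54) and when clusters were weighted equally (0.35 and -0.54). Within the Abcc9 cluster alone both were inside the fold. Tgfb1 had there 72.7 and 56.9 CPM, a log2 ratio of 0.35 (-0.19 to 0.90), and Tgfb3 had 80.1 and 116.6 CPM, a log2 ratio of -0.54 (-0.998 to -0.10). The Tgfb1 levels of the class were close to those of the free-RNA reference, 79.6 and 45.4 CPM, which differed in the same direction, whereas its Tgfb3 levels stood far above the 8.68 and 10.6 CPM of the reference. Endothelial markers stood at 1801 and 2131 CPM and FAP markers at 958 and 614 CPM in this class, and the part of these and of free RNA in the result was not tested.

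Fst was higher in the FAP-like cells of ATRA+agonist by a log2 ratio of 0.48 (0.41 to 0.55), just within the fold when all FAP-like cells were summed. The 3 FAP-like clusters, however, differed both in Fst and in their number of cells. A cluster led by Gdf10, Fst and Penk was the richest, with 663 CPM from 316 cells in ATRA+agonist and 444 CPM from 496 cells in DMSO vehicle. A cluster led by Mme and Smoc2 had 228 and 139 CPM from 661 and 748 cells. A cluster led by Sema3c and Pi16 had 132 and 86.8 CPM from 308 and 319 cells. Within each of them the ATRA+agonist level was higher and the intervals did not overlap, with log2 ratios of 0.58 (0.48 to 0.67), 0.72 (0.60 to 0.84) and 0.60 (0.38 to 0.83). When the 3 clusters were weighted equally, a choice made after seeing the data, the ratio was 0.61 and past the fold. Fst is among the leading genes of the first cluster, so its high level there is no separate result.

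The share of cells with at least 1 Fst UMI showed the same order. In the Mme and Smoc2 cluster one was found in 52.3% (ATRA+agonist) and 35.3% (DMSO vehicle) of cells, in the Sema3c and Pi16 cluster 46.4% and 32.9%, and in the Gdf10 cluster 80.7% and 65.7%. Because FAP-like cells were deeper in ATRA+agonist (a median of 9839 against 7924 UMIs), every cell was also thinned to 1000 UMIs. The share over all FAP-like cells was then 21.0% in ATRA+agonist and 16.1% in DMSO vehicle, against 57.9% and 44.5% unthinned. In B cell-like cells, with medians of 5350 and 4400 UMIs, no cell had an Fst UMI. The 10 cells richest in it held 10.3% and 9.38% of the FAP-like Fst UMIs, so that the level did not rest on a few cells.

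Fst was also seen at low levels in vessel wall and tendon cells, where it was lower in ATRA+agonist. Pericyte/smooth muscle-like cells had 4 UMIs (4.31 CPM) in 3 cells and 41 UMIs (31.3 CPM) in 14 cells, and tenocyte-like cells had 0 UMIs and 24 UMIs (7.70 CPM) in 11 cells. Both pairs were under the limit of 50 UMIs and were not counted. In the former, 11 of the 41 UMIs came from 1 cell of the Acta2 cluster. The DMSO vehicle levels lay close to or under the 20.2 CPM of the free-RNA reference in tenocyte-like cells and above it in pericyte/smooth muscle-like cells.

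Inhba had no difference over all FAP-like cells, with 57.1 CPM (740 UMIs) and 56.8 CPM (730 UMIs) and a log2 ratio of 0.01 (-0.14 to 0.16), but its clusters pointed in different directions. In the Sema3c and Pi16 cluster it read 50.3 CPM (161 UMIs) in ATRA+agonist and 95.7 CPM (278 UMIs) in DMSO vehicle, a log2 ratio of -0.93 (-1.22 to -0.64). In the Mme and Smoc2 cluster it read 68.0 and 50.5 CPM, a log2 ratio of 0.43 (0.22 to 0.64). The Gdf10 cluster had 38.9 and 37.2 CPM. The 10 richest cells held 45.3% and 46.4% of the Inhba UMIs of the Sema3c and Pi16 cluster, a concentration that a Poisson interval does not cover. The ratio in tenocyte-like cells was -0.15 (-0.46 to 0.15).

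**Figure D3:**
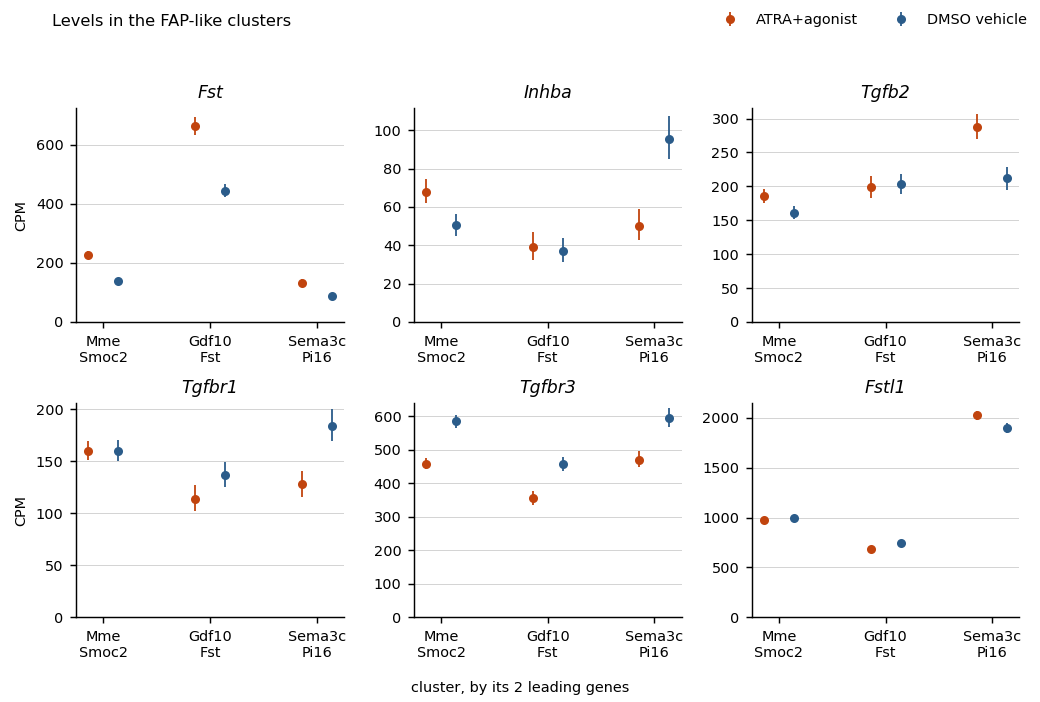
Level (CPM, y axis) of 6 members in the 3 FAP-like clusters (x axis, named by their 2 leading genes), for ATRA+agonist (orange) and DMSO vehicle (blue), with exact Poisson 95% intervals. Fst was higher in ATRA+agonist in all 3 clusters and Tgfbr3 lower in all 3, while Inhba was higher in the first and lower in the third.

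Among the receptors, Tgfbr3 in FAP-like cells read 437 CPM (426 to 449) and 549 CPM (536 to 562), a log2 ratio of -0.33 (-0.38 to -0.28), within the fold. Its ratio was nearly equal in the 3 clusters, at -0.35, -0.36 and -0.34. In tenocyte-like cells the ratio was -0.25 (-0.36 to -0.14). In MuSC-like cells, also rich in it, 620 and 618 CPM gave a ratio of 0.00 (-0.08 to 0.09), an interval that leaves out the FAP-like value.

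Tgfbr1 was lower in ATRA+agonist in 6 of 6 classes, within the fold in each at the main settings. The classes share the same 2 libraries and are not independent, and the share of all genes lower in 6 of 6 was not counted. The ratio was -0.45 (-0.61 to -0.29) in macrophage or monocyte-like cells, -0.36 (-0.53 to -0.20) in MuSC-like cells, -0.21 (-0.38 to -0.05) in endothelial-like cells and -0.16 (-0.26 to -0.07) in FAP-like cells. In tenocyte-like cells it was -0.15 (-0.39 to 0.08) and in pericyte/smooth muscle-like cells -0.13 (-0.53 to 0.27), where the intervals held 0. The clusters were less uniform than the classes. Among FAP-like clusters the ratio was -0.53 (-0.72 to -0.34) in the Sema3c and Pi16 cluster, -0.27 in the Gdf10 cluster and 0.00 (-0.13 to 0.12) in the Mme and Smoc2 cluster. In an endothelial-like cluster led by Gbp4 and Cd274 it was 0.30, from 107 and 86.7 CPM, with an interval that just held 0. In one led by Selp and Plvap it was -0.73 (-1.44 to -0.06), past the fold, from 26 and 68 UMIs. The Aqp1 cluster had -0.17 (-0.45 to 0.12) and a cluster led by Sema3g and Edn1 0.06 (-0.41 to 0.53). Tgfbr2 was lower in macrophage or monocyte-like cells, with 135 and 181 CPM and a ratio of -0.42 (-0.58 to -0.26), and lay between -0.12 and 0.18 in the other 5 classes. Over the alternative settings the macrophage ratio ranged from -0.81 to -0.12 for Tgfbr1, which passed the fold under 3 of them, and from -0.77 to 0.18 for Tgfbr2.

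Tgfb2 was higher in ATRA+agonist in FAP-like cells by 0.21 (0.13 to 0.29) and in endothelial-like cells by 0.38 (0.13 to 0.63), both within the fold. Among FAP-like clusters the gap was widest in the Sema3c and Pi16 cluster, with 288 and 212 CPM and a ratio of 0.44 (0.30 to 0.59), and near 0 in the Gdf10 cluster (199 and 204 CPM). In MuSC-like cells the ratio was 0.04 (-0.16 to 0.24). Fstl1 differed little in FAP-like cells (0.06, 0.02 to 0.09), and was lower in endothelial-like cells with 49.2 and 60.3 CPM (-0.30, -0.48 to -0.11). These endothelial levels were under the 50.6 and 108 CPM of the free-RNA reference, while macrophage or monocyte-like cells held only 0.83 and 0.30 CPM. The part of free RNA in the endothelial levels was not tested.

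The endothelial-like class was made of different clusters in the libraries. A cluster led by Aqp1 held 1425 of 2710 cells in ATRA+agonist, whereas the Gbp4 and Cd274 cluster, led by interferon-response genes, held 1187 of 2551 cells in DMSO vehicle. Tgfb2 was concentrated in a cluster led by Sema3g and Edn1, at 187 CPM (164 to 213) from 262 cells and 134 CPM (113 to 158) from 206 cells, against 5.50 and 4.74 CPM in the Aqp1 cluster. The ratio within the Sema3g cluster was 0.48 (0.17 to 0.79). Tgfbr2 was higher in that cluster and in a cluster led by Selp and Plvap, with 104 to 135 CPM, than in the Aqp1 cluster (44.2 and 37.4 CPM). Tgfbr3 was highest in the Selp cluster, at 305 and 333 CPM. Tgfb1 was less concentrated and lay between 95.5 and 263 CPM in all 5 clusters. The low end came from a shallow cluster led by Rflnb and Unc45b, with 71 and 37 Tgfb1 UMIs. Its 638 and 362 cells had medians of 768.5 and 892 UMIs and enter the values of the whole class. Within the Aqp1 cluster the Tgfbr3 ratio was 0.43 (0.15 to 0.72), while over the whole class, with its different mix of clusters, it was -0.11 (-0.24 to 0.03).

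**Figure D4:**
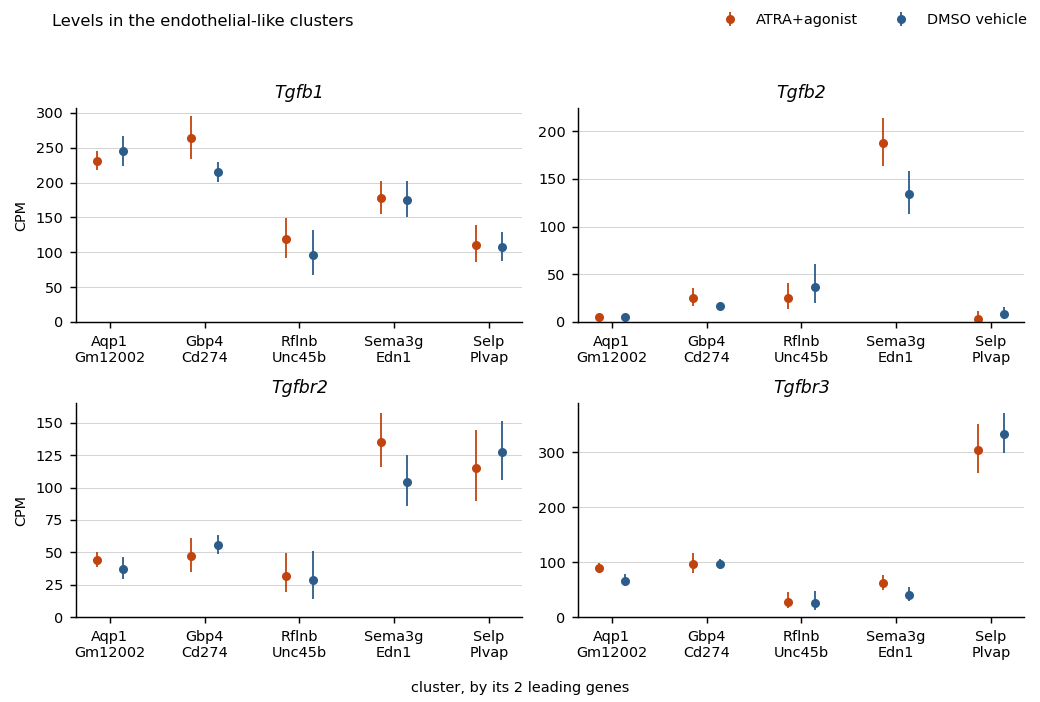
Level (CPM, y axis) of 4 members in the 5 endothelial-like clusters (x axis, named by their 2 leading genes), for ATRA+agonist (orange) and DMSO vehicle (blue), with exact Poisson 95% intervals. Tgfb2 stood at 187 and 134 CPM in the Sema3g and Edn1 cluster and Tgfbr3 at 305 and 333 CPM in the Selp and Plvap cluster, each the highest of the 5.

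Around the members, 54 further genes of the pathway were examined in 7 lists: release and storage of latent TGF-beta, other activin-type ligands, other receptors, antagonists, Smad transducers, intracellular brakes, and response genes. In FAP-like cells 3 of 46 measured genes were at least 1.5-fold higher and 4 lower, in MuSC-like cells 3 and 5 of 39, in endothelial-like cells 2 and 4 of 33, in macrophage or monocyte-like cells 0 and 1 of 27, in pericyte/smooth muscle-like cells 2 and 7 of 32, and in tenocyte-like cells 4 and 7 of 39. By the same rule 3.27% of all genes were higher and 6.28% lower in FAP-like cells. The shares were 6.41% and 4.60% in MuSC-like, 5.80% and 4.73% in endothelial-like, and 3.75% and 4.64% in macrophage or monocyte-like cells. They were 6.90% and 8.19% in pericyte/smooth muscle-like and 5.61% and 11.5% in tenocyte-like cells. The lists were chosen with earlier results of these data known, and the counts were not tested against these shares. The SMAD2, SMAD3 and SMAD4 transducers did not pass the fold in any of the 6 classes where they had enough UMIs.

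Thbs1, thrombospondin 1, which releases latent TGF-beta, was lower past the fold in 4 classes. In FAP-like cells it read 114 CPM (1478 UMIs) and 239 CPM (3073 UMIs), a log2 ratio of -1.07 (-1.16 to -0.98). In endothelial-like cells 6.38 and 18.3 CPM gave -1.52, from 53 and 164 UMIs, and the ratio, looked up after these values were seen, was -0.62 in MuSC-like and -0.66 in pericyte/smooth muscle-like cells. Ccn2 (connective tissue growth factor), a matricellular response gene, was lower in FAP-like cells with 104 and 219 CPM, in pericyte/smooth muscle-like cells with 15.1 and 58.8 CPM, and in tenocyte-like cells with 481 and 1386 CPM. The last was a log2 ratio of -1.53 (-1.67 to -1.39).

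Periostin (Postn), another matricellular response gene, went both ways. It was lower in FAP-like cells (47.8 and 101.2 CPM, -1.08), MuSC-like cells (10.5 and 43.4 CPM, -2.05) and pericyte/smooth muscle-like cells (12.9 and 41.2 CPM, -1.67). In tenocyte-like cells it was higher (255 and 137 CPM, 0.89). Of these classes tenocyte-like cells had the highest Postn, with 127 cells in ATRA+agonist and 522 in DMSO vehicle. The free-RNA reference was not computed for Thbs1, Ccn2 or Postn, and the part of free RNA in their levels was not tested. Col1a1 and Col3a1 were also higher in the tenocyte-like cells of ATRA+agonist, with 3132 and 1140.3 CPM (1.46) and with 565 and 234 CPM (1.27). Both encode fibrillar collagen chains, and Col3a1 is also a FAP marker, of which the full list stood at 22791 and 17637 CPM in tenocyte-like cells. Of the lower genes there, Angptl4 and Itgb6 had 8 and 7 UMIs in ATRA+agonist. Col3a1 was higher in FAP-like cells too, with 2262 and 1377.5 CPM (0.72).

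In MuSC-like cells the early response genes Ccn1 (188 and 95.4 CPM, 0.98), Klf10 (22.7 and 13.8 CPM, 0.72) and Junb (2656 and 1736 CPM, 0.61) were higher, and Cd109, a TGF-beta co-receptor that dampens signaling, was lower (14.3 and 40.4 CPM, -1.49). Col1a1 was lower there too, with 19.4 and 42.7 CPM, while FAP markers stood at 1112 and 1220.3 CPM in these cells. In endothelial-like cells Ltbp1, which tethers latent TGF-beta to the matrix, was higher (79.1 and 42.6 CPM, 0.89), as was Klf10 (0.64), and Pmepa1, which dampens Smad signaling, was lower (42.0 and 73.4 CPM, -0.80). Ltbp4 and Nox4 were higher in pericyte/smooth muscle-like cells (0.70 and 0.60) and Bhlhe40 was lower (-1.44, from 12 and 46 UMIs). Smad7, an inhibitory Smad, was the 1 gene past the fold in macrophage or monocyte-like cells, with 15.5 and 25.9 CPM (-0.74). Ltbp2 and Fstl3 passed in FAP-like cells on 35 and 18, and on 44 and 28 UMIs, and the interval of Fstl3 held 0.

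**Figure D5:**
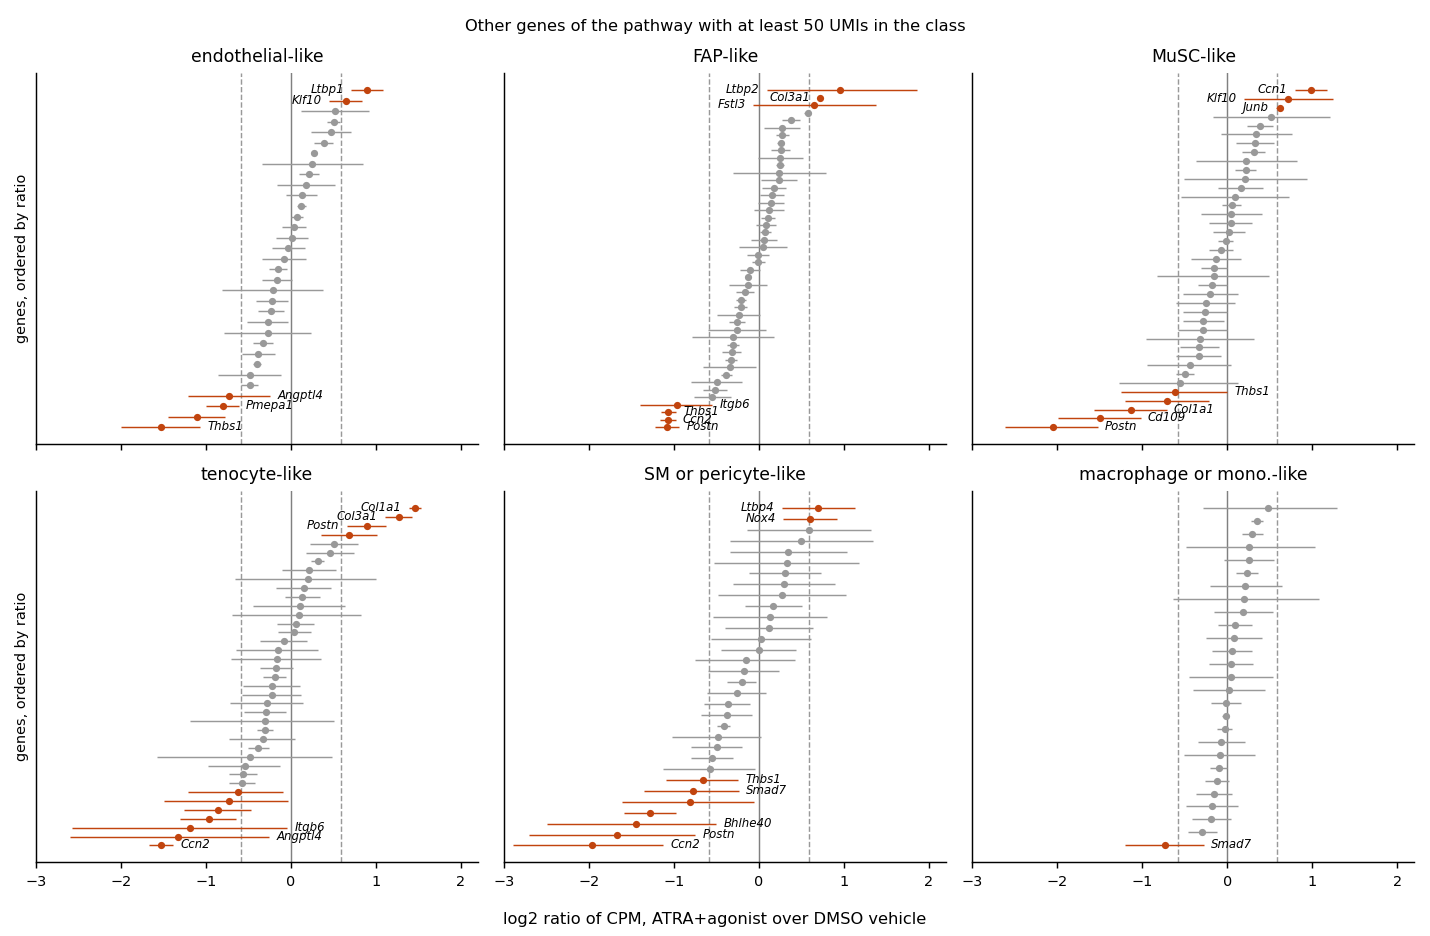
Log2 ratio of CPM, ATRA+agonist over DMSO vehicle (x axis), for the other pathway genes with at least 50 UMIs in each of the 6 compared classes, ordered by ratio (y axis), with exact 95% intervals of counting error; orange genes lie past 1.5-fold (dashed lines), and those described in the text are named. Thbs1 is among the lower genes of 4 panels, Ccn2 of 3, and Postn is lower in 3 panels and higher in tenocyte-like cells.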

How the data were processed

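For both libraries the deposited values are raw UMI counts, made by the authors with Cell Ranger 7.2.0 on mm10 (GRCm38) from 10x 3-prime libraries. The annotation release is not given in the sources used here. Counts summed to 65197625 over 10444 barcodes (ATRA+agonist) and 109343486 over 17394 (DMSO vehicle).

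Cells had 300 to 5000 genes, under 20% mitochondrial UMIs and under 0.25% UMIs from Hbb- genes, the limits of the study. The 7.5% of cells most like artificial doublets were removed per library. Cells were merged without batch correction and clustered (scanpy 1.11.5, 2000 variable genes, 30 components, resolution 0.8), leaving out the 64 genes studied. A cluster was named where at least 3 markers of a class were at least 2-fold higher than in other cells, and stayed unnamed where markers of another class or at least 3 immunoglobulin genes led it. Naming limits were set after clusters had been seen.

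UMIs were summed per class and library. The interval of a ratio was computed exactly from the binomial split of both libraries' UMIs, and a count of 0 was taken to allow 3. Intervals cover counting error only and leave out differences between mice, cells and libraries. No test was run (scipy 1.17.1, numpy 2.4.6 and pandas 2.3.3 in Python 3.11.15). The interval and fold rule were tested on simulated data. Members and lists were chosen with earlier results of these data known. All 10 members were named, with their leading class and every class past the fold; of the lists, up to 3 genes per class and direction with the largest ratio past the fold; and 3 genes of like pattern per member with at least 200 UMIs. Some genes that met these rules are not reported here. Alternatives changed filters, doublet rate, resolution, naming, scaling, thinning and the UMI minimum. Gene positions came from GENCODE M21 by identifier and promoters from RefSeq (GRCm38.p6).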

Additional observations from a re-analysis of the deposited data

Results flagged for a closer look

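The ratios here were singled out because the same gene pointed in opposite directions in 2 classes or clusters, with each counting interval on its own side of 0. The difference between them was not tested, and each rests on 1 library per group. Inhba was higher in the FAP-like cluster led by Mme and Smoc2, with a log2 ratio of ATRA+agonist over DMSO vehicle of 0.43 (0.22 to 0.64), and lower in the cluster led by Sema3c and Pi16, with -0.93 (-1.22 to -0.64). The 10 richest cells held 45.3% and 46.4% of the Inhba UMIs of the latter. Fstl1 was slightly higher in FAP-like cells, with a ratio of 0.057 (0.02 to 0.09), and lower in endothelial-like cells, with -0.30 (-0.48 to -0.11). Its endothelial level was under that of the free-RNA reference, and the part of free RNA in it was not tested. Within FAP-like cells Fstl1 had a ratio of 0.093 (0.04 to 0.14) in the Sema3c and Pi16 cluster and of -0.14 (-0.22 to -0.06) in the cluster led by Gdf10 and Fst.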

How the results depend on the processing

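No paired analysis was possible because each group is 1 library. Without replicates the counting intervals are a lower limit on the error, and depth limits Mstn throughout and Fst outside FAP-like cells. The count of member and class pairs higher in ATRA+agonist, 1 of 41, became 2 with no doublet removal, a doublet rate of 15%, no maximum of genes, a resolution of 1.6 or the members kept for clustering, 4 with no hemoglobin filter, and 0 when cells were named one by one, thinned to 1000 UMIs or limited to pairs with at least 200 UMIs. The count of lower pairs, also 1, became 4 with no doublet removal or no maximum of genes, 3 with a doublet rate of 15% or at least 20 UMIs, 2 with a mitochondrial limit of 10%, a higher minimum of genes, a resolution of 1.6, the members kept for clustering or a mean over cells, and 0 when cells were named one by one or clusters were weighted equally, a choice made after seeing the data. The pairs behind these counts were not always those of the main settings. Tgfb1 in pericyte/smooth muscle-like cells was inside the fold with a higher minimum of genes (0.44), cells named one by one (0.34) and equal cluster weights (0.35), and the 1 higher pair was then Tgfbr3 in macrophage or monocyte-like cells for the first and Fst in FAP-like cells for the last. Tgfb3 there was inside the fold under the same 3 settings (-0.34, -0.54 and -0.54) and with no doublet removal (-0.33), no hemoglobin filter (-0.47) and a mitochondrial limit of 10% (-0.53). Several settings compared more classes, up to 10, and many of the added calls lay in glial-like and perineurial-like cells. Of 634 recomputed ratios 594 stayed within the counting interval of their first value, 40 moved beyond it and 58 had the other sign. Thinning moved the most, 15 of 32 ratios, but it also cut the counts. Tgfb1 in FAP-like cells fell from 538 and 521 UMIs to 46 and 78. The interval of the first value does not cover the counting error of thinned counts, whose part in these moves was not tested. At a doublet rate of 15% Tgfbr1 and Tgfbr2 passed the fold in macrophage or monocyte-like cells, with -0.81 and -0.77, and Tgfbr1 did so also when thinned (-0.67) and as a mean over cells (-0.59). Of 257 recomputed levels 62 moved. Fst in FAP-like cells ranged from 0.43 to 0.61, Tgfbr3 there from -0.45 to -0.31, Tgfb1 in pericyte/smooth muscle-like cells from 0.34 to 0.83 and Tgfb3 there from -0.98 to -0.33. Tgfbr1 was lower under every alternative in 5 of the 6 classes, and reached 0.03 in pericyte/smooth muscle-like cells. The causes of these shifts were not tested.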
